A study of Mus musculus with 8 samples.

Results

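The gene set described here holds the semaphorins and their plexin receptors, the ephrins and their Eph receptors, the Slits and their Robo receptors, and the netrins and the Unc5 receptors. Its members were taken by gene symbol with no filter on expression values, and the set was chosen with earlier results of these data known. Every protein coding gene with a symbol of the form Sema3 to Sema7 plus a letter, Plxna to Plxnd, Epha or Ephb, Efna or Efnb, Slit1 to Slit3, Robo1 to Robo4, Ntn1 to Ntn5 or Unc5a to Unc5d was taken. This gave 65 of the 22046 protein coding genes, and of the 54532 genes in all, in the deposited table: 20 semaphorins, 9 plexins, 14 Eph receptors, 8 ephrins, 3 Slits, 4 Robo receptors, 3 netrins and 4 Unc5 receptors.

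These families were named for steering growing axons, and they also act in mesenchyme, epithelium and vessels, where they set cell spacing, contraction and migration. Secreted class 3 semaphorins mostly bind neuropilins that pair with A-type plexins, whereas the membrane-bound classes bind plexins directly, and plexins act on small GTPases through their own GAP domain. Eph receptors are tyrosine kinases that meet membrane-anchored ephrins on neighbouring cells, with signals in both directions; Slits are secreted ligands of Robo receptors, and netrins bind Dcc and neogenin, or Unc5 receptors, which can turn attraction into repulsion.

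The study grew wild-type mouse embryonic fibroblasts (MEFs, the mixed mesenchymal cells that grow out of dissociated embryos) for 4 days in 4 media, with 2 RNA-seq libraries per medium and 8 in all. The first medium was ordinary MEF medium. CFAE+8 held C (CHIR99021, an inhibitor of the kinase GSK-3), F (Forskolin, an activator of adenylyl cyclase), A (AM580, an agonist of retinoic acid receptor alpha), E (EPZ04777, as the labels spell it, an inhibitor of the histone methyltransferase DOT1L) and 8 (A-83-01, an inhibitor of TGF-beta type I receptors). CFAE+8+MSC added MSC2530818, an inhibitor of the Mediator kinases CDK8 and CDK19, and CFAE+6 held E-616452, another inhibitor of TGF-beta type I receptors, in place of A-83-01. The series is about chemical reprogramming, and these libraries were taken on 1 day only. The doses were not stated in the labels, and nothing in them tells whether the 2 libraries of each medium were separate cultures. The p-values therefore reflect the spread between these libraries only, and that spread may be technical.

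Library totals ran from 10958430 to 11913143 counts. Levels are given as CPM, which are counts relative to a library size scaled by edgeR's TMM method, or as RPKM, which also divides by gene length and is the scale used to compare one gene with another. A gene was called changed at a Benjamini-Hochberg adjusted p under 0.05 in edgeR's quasi-likelihood test over the 15470 genes that passed its filter on low counts. Of the guidance genes 61 passed that filter, and the median level over all libraries was 26.0 CPM for these and 21.8 CPM for all genes tested. Plxnb3 (at most 0.550 CPM in a library), Epha10, Epha6 and Robo4 did not pass; Epha10 had no count in the MEF or CFAE+8 libraries, and Epha6 had none with MEF medium, 8 with CFAE+8, 3 with CFAE+8+MSC and 16 with CFAE+6. All 12 fibroblast markers were detected in every medium, with summed levels of 41040 and 42380 CPM in MEF, 16290 and 16220 in CFAE+8, 16780 and 17310 in CFAE+8+MSC and 14580 and 15130 in CFAE+6. The sums hide opposite directions: each cocktail had 4 of the 12 called higher and 8 called lower against MEF medium. Of all genes tested 62.0%, 64.1% and 63.1% were called in CFAE+8, CFAE+8+MSC and CFAE+6 against MEF medium. Col1a1, Fn1 and Col1a2 had the highest means of the 12 in MEF medium, 14730, 10830 and 7595 CPM. With CFAE+8 these means were 4058, 2415 and 2020 CPM. The mean of Twist1 went the other way, from 102.9 to 994.4 CPM. S100a4 was barely detected in the cocktails. It averaged 0.297, 0.978 and 0.739 CPM in CFAE+8, CFAE+8+MSC and CFAE+6, beside 5.455 CPM in MEF medium. These are bulk libraries, so fewer cells of a type and less RNA per cell cannot be told apart.

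The sequences just before the start of 4 of the genes are shown because these genes carry the patterns described below: Sema5a and Epha8 were far higher in CFAE+8 than in MEF medium, and Epha4 and Sema3e were lower in CFAE+8 than in MEF medium and higher again in the other cocktails than in CFAE+8. They come from RefSeq (build GRCm38.p6), are written 5′ to 3′ on the strand of the gene, and stop before the gene's start in the deposited table. Capitals mark CTTTGAA or CTTTGAT (a TCF/LEF motif), TGACG (the core of a cAMP response element), CAGAC (a SMAD-binding element) and AGGTCA (the core of a retinoic acid receptor element), each on either strand.
Sema5a, chr15:32244563-32244809, plus strand: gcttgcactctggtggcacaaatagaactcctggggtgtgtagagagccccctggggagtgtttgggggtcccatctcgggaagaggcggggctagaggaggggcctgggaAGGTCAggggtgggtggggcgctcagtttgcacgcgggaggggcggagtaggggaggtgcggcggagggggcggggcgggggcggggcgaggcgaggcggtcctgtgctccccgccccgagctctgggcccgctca
Epha8, chr4:136956817-136957066, minus strand: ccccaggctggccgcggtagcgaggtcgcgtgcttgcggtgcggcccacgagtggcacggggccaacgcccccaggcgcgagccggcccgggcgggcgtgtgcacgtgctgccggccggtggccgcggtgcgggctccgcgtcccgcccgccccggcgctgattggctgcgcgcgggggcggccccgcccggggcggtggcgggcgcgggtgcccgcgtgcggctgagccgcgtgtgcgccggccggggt
Epha4, chr1:77515089-77515338, minus strand: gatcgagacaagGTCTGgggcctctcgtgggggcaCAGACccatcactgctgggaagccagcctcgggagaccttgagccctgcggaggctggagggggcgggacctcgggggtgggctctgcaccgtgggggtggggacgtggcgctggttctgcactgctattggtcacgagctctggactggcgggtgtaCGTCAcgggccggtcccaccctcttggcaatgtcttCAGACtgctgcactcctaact
Sema3e, chr5:14025026-14025275, plus strand: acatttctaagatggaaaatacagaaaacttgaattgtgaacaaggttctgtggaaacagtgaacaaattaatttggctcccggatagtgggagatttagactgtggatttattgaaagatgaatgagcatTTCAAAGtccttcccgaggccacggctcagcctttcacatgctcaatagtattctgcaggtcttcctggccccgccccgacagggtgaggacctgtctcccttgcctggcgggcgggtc

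The Sema5a window held 1 AGGTCA, at base -139 from the RefSeq start, and the Epha8 window none of the marked motifs. The Epha4 window held CAGAC at bases -238 (minus strand), -215 and -21 and TGACG at base -57 (minus strand), and the Sema3e window held the TCF/LEF motif at base -119 (minus strand). Among the 56 guidance genes with such a window of 250 bases, 2 (3.57%) held the TCF/LEF motif, against 6.89% of the 16494 windows of protein coding genes. TGACG was in 7 (12.5%, against 20.8%), CAGAC in 27 (48.2%, against 40.5%) and AGGTCA in 8 (14.3%, against 12.4%). The GC box GGGCGG, which is not marked above, was in 40 (71.4%, against 44.5%), and the median GC content of the windows was 64.8%, against 56.0% over all windows. These matches are descriptions of letters and show no binding.

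Most of the set differed between MEF medium and CFAE+8, in both directions. Robo1, Robo2, Plxna4, Unc5d, Sema5a, the class 6 semaphorins and the B-type ephrins were higher, and Slit2, Slit3, Unc5c, most secreted class 3 semaphorins and 5 of 7 A-type Eph receptors were lower. Of the 61 tested genes 32 rose and 24 fell, which is 91.8%, against 62.0% of all genes tested (30.8% called higher and 31.3% lower). With a log2 change of at least 1 in size 22 rose and 15 fell, which is 60.7%, against 24.9% of all genes tested. The median log2 change was 0.32 over the tested guidance genes and 0.01 over all genes. Against MEF medium CFAE+8+MSC gave 32 higher and 23 lower, 90.2% against 64.1% of all genes tested, with a median of 0.48 beside 0.01 over all genes, and CFAE+6 gave 33 higher and 23 lower, 91.8% against 63.1%, with a median of 0.52 beside 0.02. At 2-fold or more these were 25 higher and 11 lower for CFAE+8+MSC (59.0%, against 26.6% of all genes) and 23 higher and 14 lower for CFAE+6 (60.7%, against 25.8%). The 3 comparisons share the MEF libraries and are set side by side only.

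**Figure D1:**
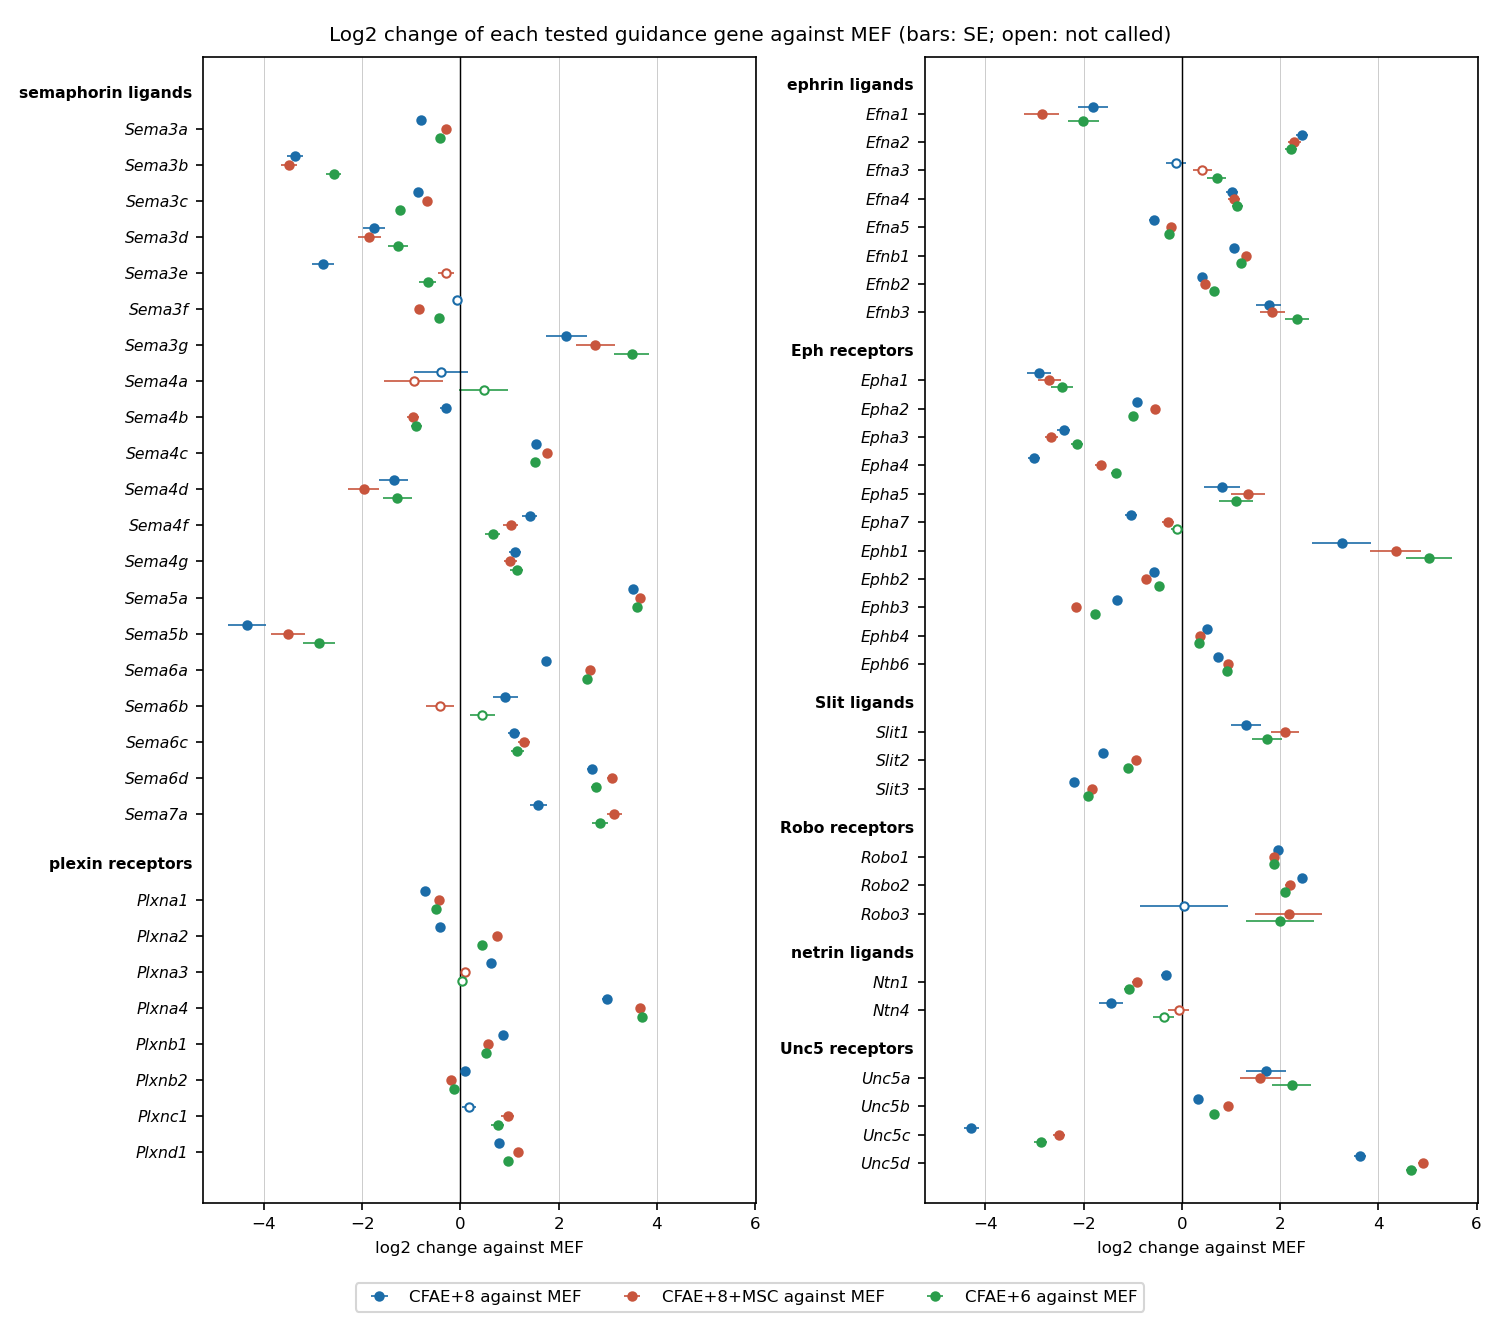
Log2 change against MEF medium (x axis) of 59 tested guidance genes by family, for CFAE+8 (blue), CFAE+8+MSC (red) and CFAE+6 (green); points are edgeR estimates, bars are standard errors, and open points did not pass the test. Class 3 semaphorins other than Sema3g lie at or left of 0 while Sema5a, Sema6d, Plxna4, Robo2 and Unc5d lie beyond 2, and Epha8 and Ntn5 are left out because they had 1 and 0 counts in MEF medium.

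Markers of other cell types also moved, where 62.0% of all genes tested were called in CFAE+8 against MEF medium (30.8% higher and 31.3% lower). The summed level of 12 neuronal markers was 162 and 169 CPM in MEF, 552 and 561 in CFAE+8, 564 and 545 in CFAE+8+MSC and 645 and 649 in CFAE+6. Of the 9 that were tested, 7 rose and 2 fell in CFAE+8: the synaptic vesicle gene Syn1 rose (log2 change 3.53 ± 0.11, adjusted p = 4.87e-22) and the dendritic microtubule gene Map2 fell (log2 change -2.30 ± 0.20, adjusted p = 4.3e-11). Rbfox3, which defines mature neurons, had no count in MEF, CFAE+8 or CFAE+8+MSC, where 0 counts allow a group mean of up to 0.140, 0.128 and 0.133 CPM. The 10 endothelial markers summed to 24.9 and 25.01 CPM in MEF, 71.6 and 64.7 in CFAE+8, 119 and 117 in CFAE+8+MSC and 105 and 97.2 in CFAE+6. Of the 7 that were tested against MEF, 4 rose and 2 fell in CFAE+8. In CFAE+8+MSC 3 rose and 1 fell, and in CFAE+6 4 rose and 3 fell. These are 85.7%, 57.1% and 100% called, beside 62.0%, 64.1% and 63.1% of all genes tested. Tie1 had no count in MEF, CFAE+8 or CFAE+8+MSC, Emcn had none in CFAE+8+MSC or CFAE+6, and Cldn5 had none in MEF. Macrophage markers, of which 9 of 10 fell in CFAE+8 and 0 rose, summed to 181 and 183 CPM in MEF and to between 19.1 and 38.0 in the cocktail libraries, 8 epithelial markers summed to between 10.9 and 45.7 CPM, and 8 markers of neural crest and glia to between 19.9 and 38.9 CPM. The part of these cells in the changes of the guidance genes was not tested.

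Secreted class 3 semaphorins, which signal through neuropilins and A-type plexins, were mostly lower in the cocktails. Of the 7 tested, 5 fell and 1 rose in CFAE+8 (median log2 change -0.87) and in CFAE+8+MSC (median -0.67). With CFAE+6 there were 6 lower and 1 higher (median -0.66). Of all genes tested 31.3%, 32.2% and 31.5% were called lower in these comparisons, with medians of 0.01, 0.01 and 0.02. Sema3b was at 42.9 and 37.7 CPM in MEF medium, 3.33 and 4.41 in CFAE+8, 3.64 and 3.53 in CFAE+8+MSC and 6.79 and 6.68 in CFAE+6. It fell in CFAE+8 (log2 change -3.38 ± 0.16, adjusted p = 4.22e-17), and all 6 cocktail libraries lay far below both MEF libraries. Sema3d was at 10.4 and 14.6 CPM in MEF medium, 3.41 and 3.90 in CFAE+8, 3.55 and 3.35 in CFAE+8+MSC and 5.82 and 4.54 in CFAE+6. It too fell in CFAE+8 (log2 change -1.77 ± 0.22, adjusted p = 5.91e-08), and its cocktail libraries all lay below MEF. Sema3e, which binds plexin-D1 without a neuropilin, was at 12.3 and 15.6 CPM in MEF medium, 2.13 and 1.87 in CFAE+8, 11.3 and 11.6 in CFAE+8+MSC and 9.26 and 8.39 in CFAE+6. Against MEF medium it fell in CFAE+8 (log2 change -2.80 ± 0.22, adjusted p = 3.92e-12) and in CFAE+6 (-0.66 ± 0.17, adjusted p = 0.00133), and in CFAE+8+MSC the difference did not pass the test (-0.29 ± 0.17, adjusted p = 0.128, 95% interval -0.63 to 0.05). The axon repellent gene Sema3a fell by 0.80 and Sema3c by 0.87 on the log2 scale in CFAE+8. Sema3f, a ligand of neuropilin-2, was at 146 and 153 CPM in MEF and 151 and 136 in CFAE+8, where the groups overlapped and the test was not passed (log2 change -0.06 ± 0.06, adjusted p = 0.384).

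Sema3g was the exception among the class 3 genes, at 1.33 and 0.275 CPM in MEF medium, 2.90 and 4.24 in CFAE+8, 4.68 and 6.15 in CFAE+8+MSC and 9.26 and 8.73 in CFAE+6. It rose in CFAE+8 (log2 change 2.15 ± 0.42, adjusted p = 5.09e-05), CFAE+8+MSC (2.75 ± 0.39, adjusted p = 4.56e-07) and CFAE+6 (3.48 ± 0.36, adjusted p = 1.29e-09). Its MEF libraries held few counts and lay apart: without MEF replicate 1 the log2 change in CFAE+8 was 3.65, and without MEF replicate 2 it was 1.41, both past the test. The same omissions gave 4.25 and 2.01 in CFAE+8+MSC, and 4.98 and 2.74 in CFAE+6.

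Membrane-bound semaphorins of classes 4 to 7 went mostly the other way. Of 13 tested, 9 rose and 3 fell in CFAE+8, with a median log2 change of 1.12. Among all genes tested 30.8% were called higher and 31.3% lower there, with a median of 0.01. Sema5a, a transmembrane semaphorin with thrombospondin repeats, had the highest RPKM of them in the cocktails. It was at 71.9 and 77.2 CPM in MEF medium, 848 and 857 in CFAE+8, 953 and 941 in CFAE+8+MSC and 946 and 864 in CFAE+6. Its log2 change in CFAE+8 was 3.51 ± 0.05, adjusted p = 1.29e-29, every cocktail library lay far above both MEF libraries, and the gene (chr15:32244810-32696341, plus strand) was the semaphorin with the highest RPKM in each of the 3 cocktails. Its relative Sema5b went down, at 10.6 and 8.79 CPM in MEF medium, 0.598 and 0.339 in CFAE+8, 1.21 and 0.452 in CFAE+8+MSC and 1.15 and 1.46 in CFAE+6, with a log2 change of -4.34 ± 0.39, adjusted p = 5.61e-11 in CFAE+8. Without CFAE+8+MSC replicate 1 the Sema5b change in CFAE+8+MSC was -4.38 in place of -3.51.

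All 4 class 6 semaphorins, which bind A-type plexins, rose in CFAE+8 (median log2 change 1.41), beside 30.8% of all genes tested called higher. Sema6a was at 22.5 and 18.6 CPM in MEF medium, 69.4 and 67.6 in CFAE+8, 127 and 128 in CFAE+8+MSC and 123 and 121 in CFAE+6. Its log2 changes against MEF medium were 1.74, 2.63 and 2.57 in CFAE+8, CFAE+8+MSC and CFAE+6, with adjusted p-values of 5.2e-17, 4.39e-22 and 8.13e-22. Sema6d, a ligand of plexin-A1, was at 11.8 and 16.4 CPM in MEF medium, 87.1 and 93.9 in CFAE+8, 122 and 118 in CFAE+8+MSC and 99.8 and 92.3 in CFAE+6. Its log2 change in CFAE+8 was 2.68 ± 0.10, adjusted p = 5.69e-20, and no cocktail library came near the MEF libraries. Sema6c rose by 1.09 on the log2 scale in CFAE+8. Sema6b rose in CFAE+8 (log2 change 0.92 ± 0.25, adjusted p = 0.00203) but its values in CFAE+8+MSC (-0.42 ± 0.29, adjusted p = 0.203) and CFAE+6 (0.45 ± 0.26, adjusted p = 0.135) did not pass the test against MEF medium.

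Sema7a, a semaphorin held by a GPI anchor that binds plexin-C1 and integrins, was at 4.28 and 4.67 CPM in MEF medium, 13.7 and 13.3 in CFAE+8, 41.6 and 37.2 in CFAE+8+MSC and 28.8 and 35.4 in CFAE+6. It rose in CFAE+8 (log2 change 1.59 ± 0.18, adjusted p = 4.82e-09), CFAE+8+MSC (3.13 ± 0.15, adjusted p = 3.75e-17) and CFAE+6 (2.84 ± 0.15, adjusted p = 6.71e-16). The MEF libraries were lowest, the CFAE+8 libraries next, and the libraries of the other 2 cocktails highest, with no overlap between these levels.

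Of the 6 class 4 semaphorins 3 rose and 2 fell in CFAE+8, beside 30.8% of all genes tested called higher and 31.3% lower. Sema4c, a ligand of plexin-B2, was at 38.0 and 36.3 CPM in MEF medium, 106 and 109.6 in CFAE+8, 126 and 125 in CFAE+8+MSC and 101 and 112 in CFAE+6. Its log2 change in CFAE+8 was 1.54 ± 0.07, adjusted p = 1.96e-17, a rise in which no cocktail library overlapped MEF. Sema4f was at 8.36 and 8.70 CPM in MEF medium, 20.9 and 24.4 in CFAE+8, 17.0 and 17.7 in CFAE+8+MSC and 13.3 and 13.7 in CFAE+6, with a log2 change of 1.41 ± 0.14, adjusted p = 9.84e-10, and Sema4g rose by 1.12. Sema4d, a ligand of plexin-B1, was at 5.42 and 7.05 CPM in MEF medium, 2.82 and 2.04 in CFAE+8, 1.99 and 1.18 in CFAE+8+MSC and 2.73 and 2.40 in CFAE+6. It fell (log2 change -1.36 ± 0.29, adjusted p = 0.000186), and the cocktail libraries all lay below the lower MEF library. Sema4b fell by 0.29 in CFAE+8 (adjusted p = 0.0207), a call that was lost without CFAE+8 replicate 2 (-0.24, adjusted p = 0.142), MEF replicate 1 (-0.27, adjusted p = 0.0962) or MEF replicate 2 (-0.32, adjusted p = 0.0523). Sema4a, near 1 CPM, did not pass the test in any comparison.

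**Figure D2:**
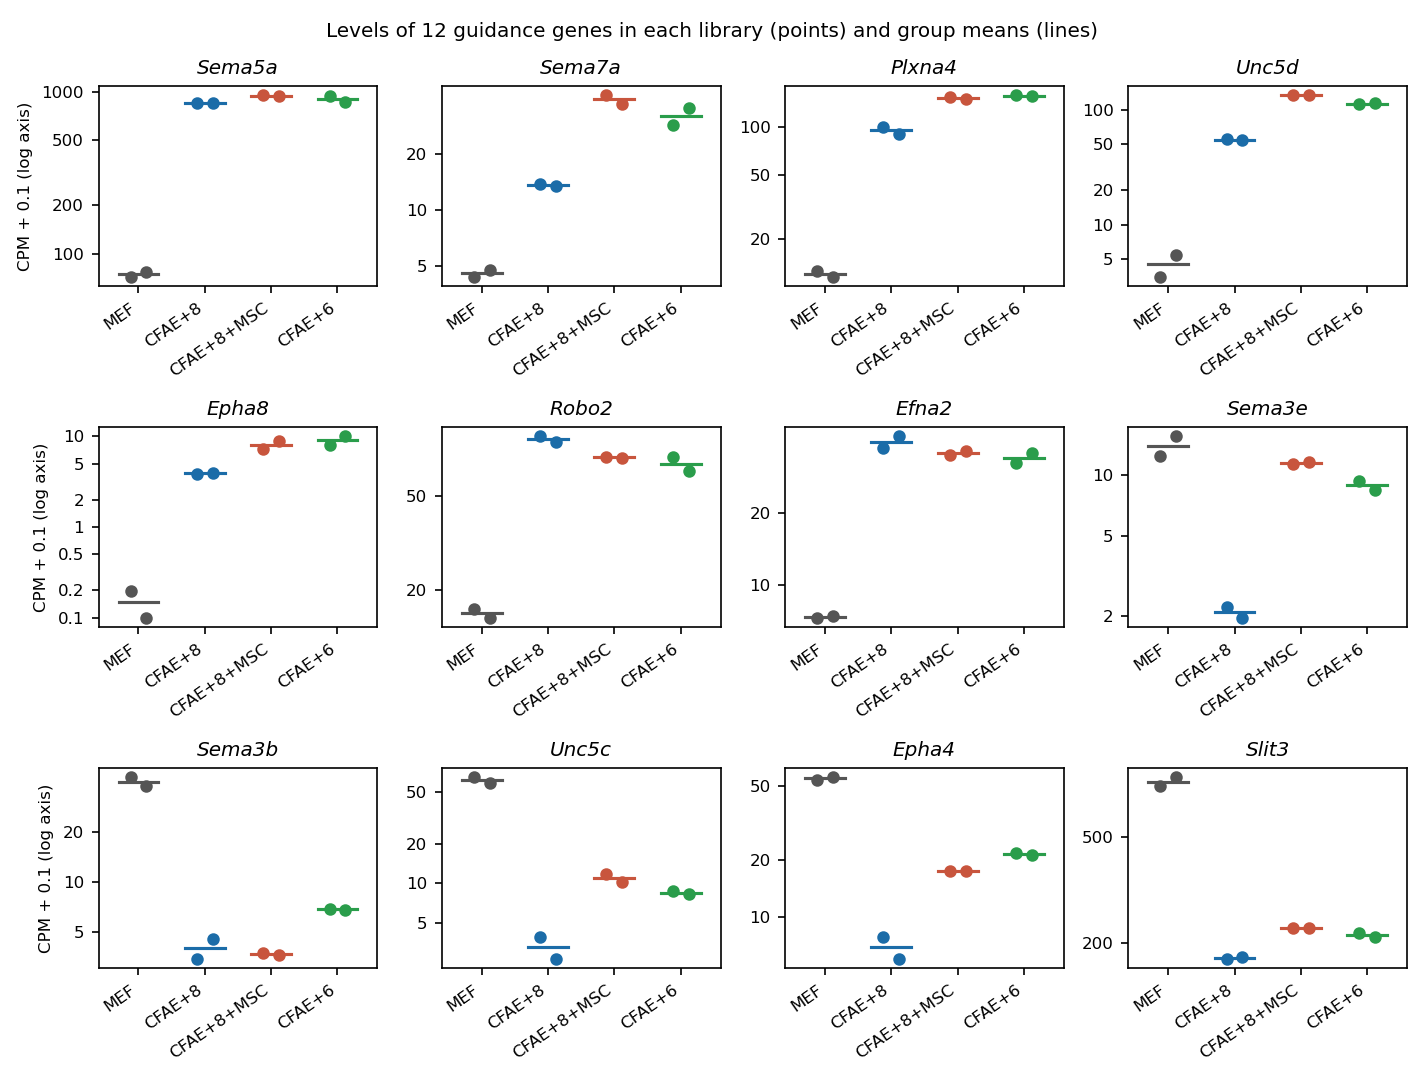
Level of 12 guidance genes in each library, as CPM with 0.1 added, on log axes that differ between panels; points are the 2 libraries of a medium and lines their mean. Sema5a, Sema7a, Plxna4, Unc5d, Epha8, Robo2 and Efna2 are lowest in MEF medium, and Sema3b, Unc5c, Epha4 and Slit3 are highest there, while Sema3e is lowest in CFAE+8.

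The plexins, which receive these ligands, kept a nearly level total while single members moved. Their summed RPKM was 173 and 181 in MEF, and the group means were 179.8 with CFAE+8, 177 with CFAE+8+MSC and 174 with CFAE+6. Plxna4 was at 12.6 and 11.5 CPM in MEF medium, 100.5 and 90.4 in CFAE+8, 154 and 149.5 in CFAE+8+MSC and 158 and 155 in CFAE+6. It rose in CFAE+8 (log2 change 2.98 ± 0.09, adjusted p = 2.39e-22), and its MEF libraries lay far below all cocktail libraries. Plxnd1, the receptor of Sema3e, rose by 0.79 on the log2 scale, Plxnb1 by 0.87 and Plxna3 by 0.62 in CFAE+8. Plxna1, the A-type plexin with the highest RPKM in every medium, fell by 0.72 (adjusted p = 4.94e-14), and Plxna2 by 0.41 (adjusted p = 8.95e-06). Of the length of Plxna1, 10.7% overlaps exons of another gene, and its value is uncertain to that extent. Plxnb2, the plexin with the highest RPKM throughout, rose by 0.10 in CFAE+8 (adjusted p = 0.0279). That call was lost without MEF replicate 1 (0.08), CFAE+8 replicate 1 (0.10) or CFAE+8 replicate 2 (0.12). In the other cocktails Plxnb2 was called lower than in MEF medium, with log2 changes of -0.184 in CFAE+8+MSC and -0.125 in CFAE+6. Plxnc1, the receptor of Sema7a, did not pass the test in CFAE+8 (log2 change 0.17 ± 0.14, adjusted p = 0.326, 95% interval -0.13 to 0.47) and rose in CFAE+8+MSC (0.96 ± 0.14, adjusted p = 3.73e-07) and in CFAE+6 (0.76 ± 0.14, adjusted p = 2.03e-05).

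Among the Eph receptors, A-type members mostly fell: 5 of 7 tested were lower and 2 higher in CFAE+8. Of the 5 B-type members 3 rose and 2 fell, beside 30.8% of all genes tested called higher and 31.3% lower. Epha1 was at 14.4 and 14.5 CPM in MEF medium, 2.22 and 1.61 in CFAE+8, 2.25 and 2.17 in CFAE+8+MSC and 2.82 and 2.48 in CFAE+6. Epha3 was at 49.99 and 51.7 CPM in MEF medium, 8.71 and 10.4 in CFAE+8, 7.01 and 9.13 in CFAE+8+MSC and 10.8 and 12.3 in CFAE+6. Epha4, which binds ephrins of both classes and lies at chr1:77367185-77515088 on the minus strand, was at 53.6 and 55.4 CPM in MEF medium, 7.68 and 5.85 in CFAE+8, 17.3 and 17.4 in CFAE+8+MSC and 21.7 and 21.1 in CFAE+6. In CFAE+8 the log2 changes were -2.91 ± 0.24, adjusted p = 8.96e-12 for Epha1, -2.41 ± 0.13, adjusted p = 5.5e-16 for Epha3 and -3.01 ± 0.12, adjusted p = 1.02e-18 for Epha4. For each of these receptors the MEF libraries lay above all cocktail libraries. The Epha4 libraries of the 3 cocktails did not overlap either, although its difference between CFAE+8+MSC and CFAE+6 did not pass the test. Epha2, the A-type receptor with the highest RPKM in MEF (26.5), fell by 0.92 in CFAE+8 (adjusted p = 1.57e-13), and Epha7 fell by 1.04 (adjusted p = 3.7e-08).

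Epha8, a receptor of A-type ephrins at chr4:136929419-136956816 on the minus strand, stood out as a gene with almost no RNA in MEF medium. It had 1 count in the MEF libraries together, 89 with CFAE+8, 180 with CFAE+8+MSC and 206 with CFAE+6, or 0.0950 and 0 CPM in MEF medium, 3.76 and 3.82 in CFAE+8, 7.10 and 8.86 in CFAE+8+MSC and 7.93 and 9.93 in CFAE+6. The ratio to MEF was 81.2 in CFAE+8 (95% counting interval 14.2 to 3242), 171 in CFAE+8+MSC (30.3 to 6781) and 192 in CFAE+6 (34.0 to 7612), with adjusted p = 1.69e-09, 1.54e-12 and 5.24e-13. Without MEF replicate 1 the fitted log2 change in CFAE+8 was 8.44 and without MEF replicate 2 it was 5.16, both past the test; the same omissions gave 9.52 and 6.23 in CFAE+8+MSC and 9.68 and 6.39 in CFAE+6. The intervals cover counting error only, and the cocktail libraries all lay above both MEF libraries. Epha5 was near 1 to 4 CPM: its call in CFAE+8 (log2 change 0.82, adjusted p = 0.05) was lost without any 1 of the 8 libraries, with adjusted p from 0.052 (without CFAE+6 replicate 1) to 0.217 (without CFAE+8 replicate 1).

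Ephb1 was also close to absent in MEF medium, at 0.190 and 0.183 CPM in MEF medium, 1.37 and 2.38 in CFAE+8, 4.59 and 3.44 in CFAE+8+MSC and 6.17 and 6.76 in CFAE+6. Its log2 change was 3.25 ± 0.60, adjusted p = 2.47e-05 in CFAE+8, 4.35 ± 0.52, adjusted p = 1.8e-08 in CFAE+8+MSC and 5.04 ± 0.47, adjusted p = 1.79e-10 in CFAE+6. Ephb3 was at 116 and 126 CPM in MEF medium, 51.2 and 45.2 in CFAE+8, 24.8 and 29.6 in CFAE+8+MSC and 34.4 and 36.6 in CFAE+6. It fell in CFAE+8 (log2 change -1.33 ± 0.08, adjusted p = 9.19e-15), CFAE+8+MSC (-2.16 ± 0.09, adjusted p = 5.64e-19) and CFAE+6 (-1.77 ± 0.08, adjusted p = 2.44e-17), with no overlap between any media. Ephb4, the receptor of ephrin-B2 and the Eph gene with the highest RPKM in the cocktails, rose by 0.52 in CFAE+8, Ephb6, whose kinase domain is inactive, rose by 0.73, and Ephb2 fell by 0.56. The summed RPKM of the Eph family was 100.4 and 104 in MEF and had a mean of 78.7 with CFAE+8, 81.2 with CFAE+8+MSC and 79.3 with CFAE+6.

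The ephrin ligands summed to more RNA in the cocktails, with a mean summed RPKM of 85.4 in MEF, 138 with CFAE+8, 151 with CFAE+8+MSC and 154 with CFAE+6. All 3 B-type ephrins, which span the membrane, rose in CFAE+8, CFAE+8+MSC and CFAE+6, where 30.8%, 31.9% and 31.6% of all genes tested were called higher. Efnb1, the ephrin with the highest RPKM in the cocktails, went from 82.3 and 81.2 CPM in MEF to 167 and 176 in CFAE+8 (log2 change 1.07 ± 0.07, adjusted p = 1.46e-14). Efnb3 was at 1.81 and 2.11 CPM in MEF medium, 7.08 and 6.28 in CFAE+8, 6.06 and 8.05 in CFAE+8+MSC and 9.52 and 10.5 in CFAE+6. It rose in CFAE+8 (log2 change 1.76 ± 0.26, adjusted p = 9.58e-07) and CFAE+6 (2.35 ± 0.25, adjusted p = 1.69e-09), and Efnb2 rose by 0.41 in CFAE+8. The A-type ephrins, held by GPI anchors, split 2 higher and 2 lower of 5 in CFAE+8, beside 30.8% and 31.3% of all genes tested. Efna2 was at 7.22 and 7.33 CPM in MEF medium, 37.3 and 42.0 in CFAE+8, 35.1 and 36.3 in CFAE+8+MSC and 32.3 and 35.6 in CFAE+6. Efna1 was at 6.18 and 6.14 CPM in MEF medium, 1.96 and 1.53 in CFAE+8, 0.779 and 0.904 in CFAE+8+MSC and 1.68 and 1.37 in CFAE+6. The log2 change in CFAE+8 was 2.44 ± 0.12, adjusted p = 1.73e-16 for Efna2 and -1.81 ± 0.31, adjusted p = 8.52e-06 for Efna1, and in both genes the cocktail libraries lay on 1 side of the MEF libraries. Efna4 rose by 1.02 and Efna5 fell by 0.58 in CFAE+8, and Efna3 did not pass the test there (log2 change -0.12 ± 0.20, adjusted p = 0.621). Exons of other genes overlap 10.5% of Efna4 and 14.1% of Efna3, which leaves these 2 values uncertain.

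The 2 abundant Slits fell in the cocktails while their main receptors rose. Slit3 was at 776 and 841 CPM in MEF medium, 175 and 178 in CFAE+8, 229 and 229 in CFAE+8+MSC and 219.8 and 212 in CFAE+6. Its RPKM of 133 was the highest of all guidance genes in MEF medium, and it was 29.1 in CFAE+8. Slit2 was at 297 and 319 CPM in MEF medium, 105 and 97.7 in CFAE+8, 164 and 157 in CFAE+8+MSC and 151 and 139 in CFAE+6. In CFAE+8 the log2 change was -2.19 ± 0.05, adjusted p = 3.2e-25 for Slit3 and -1.60 ± 0.06, adjusted p = 5.17e-20 for Slit2, and all cocktail libraries lay below MEF. Slit1, much the lowest of the 3, rose: it was at 1.52 and 1.47 CPM in MEF medium, 3.93 and 3.48 in CFAE+8, 6.06 and 6.87 in CFAE+8+MSC and 4.67 and 5.31 in CFAE+6, with a log2 change of 1.30 ± 0.31, adjusted p = 0.000588 in CFAE+8. Robo1 was at 47.2 and 46.7 CPM in MEF medium, 179.5 and 187 in CFAE+8, 173 and 173 in CFAE+8+MSC and 171 and 173 in CFAE+6. Robo2 was at 16.5 and 15.1 CPM in MEF medium, 89.4 and 84.0 in CFAE+8, 73.1 and 72.3 in CFAE+8+MSC and 72.7 and 63.4 in CFAE+6. These are the main Slit receptors, and their log2 changes in CFAE+8 were 1.96 ± 0.06, adjusted p = 8.41e-22 for Robo1 and 2.45 ± 0.09, adjusted p = 9.96e-20 for Robo2, with the MEF libraries far below all others. Summed RPKM of the Slits went from 139.9 and 152 in MEF to a mean of 33.7 in CFAE+8, and that of the Robo genes went from 3.83 and 3.84 in MEF to a mean of 16.3 in CFAE+8.

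Robo3, a Robo receptor that tempers the response to Slits, was under 2 CPM in every library. In CFAE+8 it did not pass the test against MEF medium (log2 change 0.04 ± 0.89, adjusted p = 0.973, 95% interval -1.79 to 1.87), and its calls in CFAE+8+MSC (2.18, adjusted p = 0.00646) and CFAE+6 (2.00, adjusted p = 0.0135) were lost without MEF replicate 1 (1.23, adjusted p = 0.135, and 1.04, adjusted p = 0.211). They were also lost without CFAE+8+MSC replicate 1 (1.93, adjusted p = 0.0561) and CFAE+6 replicate 2 (1.80, adjusted p = 0.0734). Without MEF replicate 2, which holds all the MEF counts of Robo3, the changes were 7.30 and 7.12. Robo4, the endothelial member, had at most 5 counts in a medium.

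Of the 3 netrin ligands 2 fell and 1 rose in CFAE+8, beside 31.3% of all genes tested called lower and 30.8% higher. Ntn4, a netrin of basement membranes, was at 7.13 and 9.25 CPM in MEF medium, 2.39 and 3.65 in CFAE+8, 7.62 and 8.05 in CFAE+8+MSC and 7.14 and 5.56 in CFAE+6. It fell in CFAE+8 (log2 change -1.44 ± 0.24, adjusted p = 8.14e-06) and did not pass the test in CFAE+8+MSC (-0.07 ± 0.21, adjusted p = 0.801) or CFAE+6 (-0.37 ± 0.22, adjusted p = 0.14) against MEF. Ntn1 fell by 0.33 in CFAE+8 (adjusted p = 0.00394), a call lost without MEF replicate 2 (-0.24, adjusted p = 0.0829), by 0.91 in CFAE+8+MSC and by 1.07 in CFAE+6. Ntn5 had no count in MEF and 17, 29 and 31 counts in CFAE+8, CFAE+8+MSC and CFAE+6, at least 5.17-fold, 9.17-fold and 9.62-fold higher against a floor of 3 counts over the MEF group. Exons of another gene cover 23.4% of Ntn5, so its value is uncertain.

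Unc5d and Unc5c, 2 receptors of 1 family, showed opposite shifts. Unc5d was at 3.42 and 5.40 CPM in MEF medium, 55.2 and 54.1 in CFAE+8, 133 and 134 in CFAE+8+MSC and 111 and 114 in CFAE+6. Unc5c was at 64.7 and 58.7 CPM in MEF medium, 3.76 and 2.54 in CFAE+8, 11.6 and 10.04 in CFAE+8+MSC and 8.55 and 8.22 in CFAE+6. In CFAE+8 the log2 change was 3.62 ± 0.12, adjusted p = 6.71e-21 for Unc5d and -4.29 ± 0.15, adjusted p = 2.15e-20 for Unc5c, and no cocktail library overlapped MEF in either gene. Unc5b, the Unc5 gene with the highest RPKM in every medium, rose by 0.32 in CFAE+8 (adjusted p = 4e-06), by 0.94 in CFAE+8+MSC and by 0.65 in CFAE+6. Unc5a, under 5 CPM, rose by 1.72 in CFAE+8 (adjusted p = 0.000636). Mean summed RPKM of the Unc5 genes was 55.9 in MEF, 71.8 with CFAE+8, 116 with CFAE+8+MSC and 95.5 with CFAE+6.

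**Figure D3:**
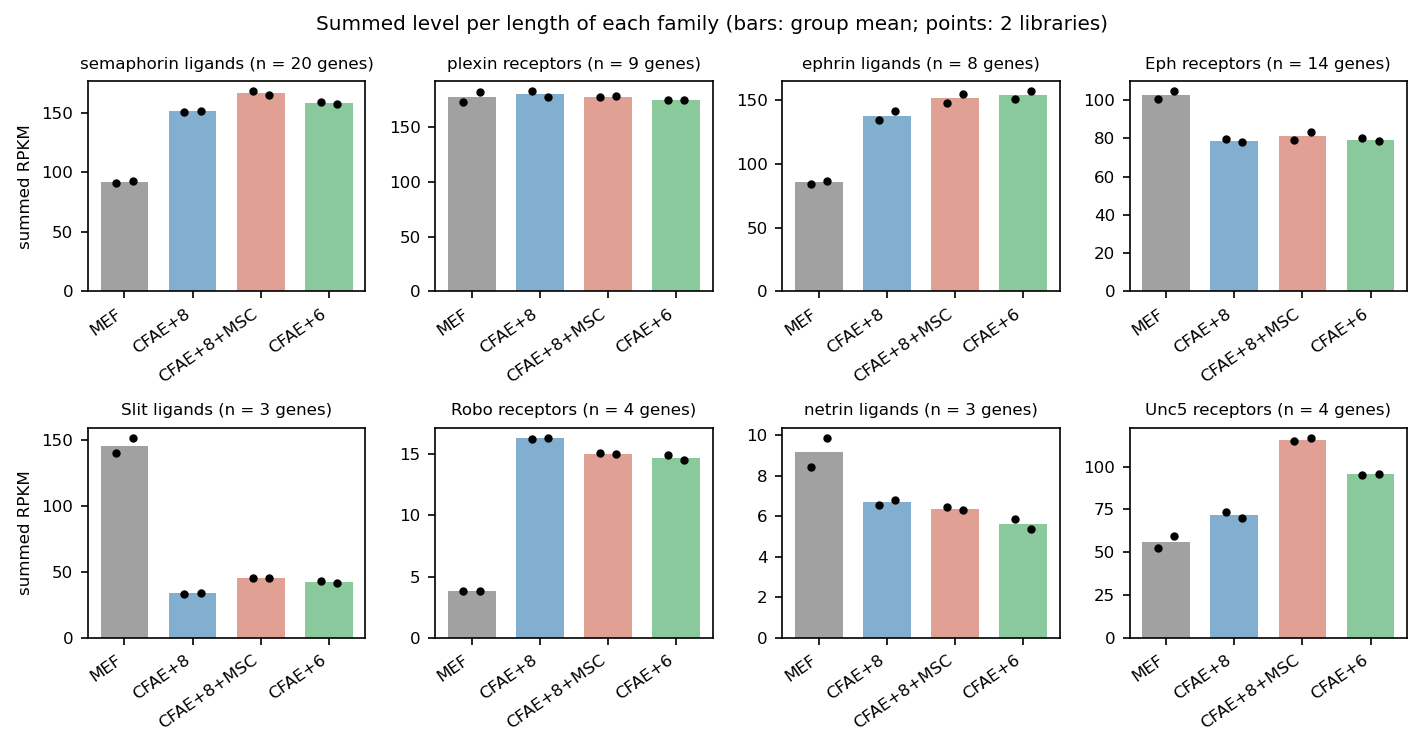
Summed RPKM of each family (y axes start at 0 and differ between panels) in the 4 media; bars are group means and points the 2 libraries. Slit and Eph sums are highest in MEF medium, semaphorin, ephrin, Robo and Unc5 sums are lowest there, and the plexin sum differs little between media.

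Co-receptors and further ligands of these pathways, a list of 15 genes, gave 10 higher and 5 lower in CFAE+8 (median log2 change 0.76), beside 62.0% of all genes tested that were called (30.8% higher and 31.3% lower). Draxin, a secreted protein that binds Dcc and netrin, was at 1.52 and 2.66 CPM in MEF medium, 302 and 279 in CFAE+8, 274 and 259 in CFAE+8+MSC and 283 and 261 in CFAE+6, with a log2 change of 7.11 ± 0.12, adjusted p = 6.49e-29. The netrin-G gene Ntng1 was at 0.665 and 1.47 CPM in MEF medium, 27.1 and 25.02 in CFAE+8, 28.0 and 25.7 in CFAE+8+MSC and 27.7 and 20.2 in CFAE+6, with a log2 change of 4.59 ± 0.24, adjusted p = 2.43e-16. Both genes were close to absent in MEF medium and at like levels in the 3 cocktails. The netrin receptor Dcc, at 0.285 and 0.366 CPM in MEF and 1.71 and 1.95 in CFAE+8, rose by 2.45, and its relative Neo1 by 0.76. The neuropilin gene Nrp1 fell in all 3 cocktails, with log2 changes of -0.80, -0.69 and -0.83 in the order CFAE+8, CFAE+8+MSC, CFAE+6. Nrp2 fell by 0.26 in CFAE+8 but rose by 0.34 in CFAE+8+MSC and by 0.18 in CFAE+6, all against MEF medium. The adhesion gene L1cam, a partner of neuropilin-1, fell by 2.53 in CFAE+8.

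Genes that act downstream were counted in 3 lists, beside 62.0% of all genes tested that were called in CFAE+8 against MEF. Of 16 effectors of semaphorins and plexins 3 rose and 9 fell (12 of 16 called, median log2 change -0.37). The collapsin response genes Dpysl4 (2.94 ± 0.12, adjusted p = 4.56e-19) and Crmp1 (1.66 ± 0.09, adjusted p = 1.07e-15) rose, and the small GTPase gene Rras, a substrate of the plexin GAP domain, fell (-1.28 ± 0.09, adjusted p = 3.18e-13), all as log2 changes. Rnd1 fell as well, from a mean of 8.72 CPM in MEF to 1.02 in CFAE+8. So did Fes, from 26.1 to 8.00 CPM, and Mical1, from 44.9 to 16.9 CPM. Of 14 Eph and ephrin effectors 8 rose and 5 fell (13 of 14 called, median 0.28), with the exchange factor genes Ngef (2.18 ± 0.23, adjusted p = 2.98e-09) and Vav3 (1.88 ± 0.17, adjusted p = 8.68e-11) higher. In the other direction, mean Vav2 was 57.0 CPM in MEF and 27.7 in CFAE+8, and mean Rasa1 was 139 and 80.9. Of 13 tested effectors of Slits, Robo receptors and netrins 7 rose and 3 fell (10 of 13 called, median 0.30). The actin regulators Enah (1.78 ± 0.05, adjusted p = 5.27e-23) and Evl (1.60 ± 0.06, adjusted p = 4.3e-19) rose, Vasp of the same family fell (-0.90 ± 0.06, adjusted p = 6.45e-14), and the Dcc-binding ubiquitin ligase gene Trim9 rose (4.06 ± 0.25, adjusted p = 9.84e-15).

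Adding MSC2530818 to CFAE+8 asks what inhibition of CDK8 and CDK19 changes on top of the cocktail. The guidance genes moved mostly upward: Sema3e, Sema7a, Unc5c, Unc5d, Ntn4, Epha4, Plxna2 and Epha8 rose by over 1 on the log2 scale, and Sema6b fell. Of 61 tested genes 29 rose and 10 fell, which is 63.9%, against 29.3% of all genes tested (15.6% higher and 13.8% lower). With a log2 change of at least 1 in size 10 rose and 1 fell, together 18.0%, against 6.39% of all genes tested (4.77% higher and 1.62% lower). The median log2 change was 0.22 for the guidance genes and -0.00 for all genes.

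By family, 7 semaphorins rose and 4 fell of 20, 5 plexins rose and 3 fell of 8, 6 Eph receptors rose and 1 fell of 12, and 3 ephrins, all 3 Slits and 3 Unc5 receptors rose with none lower, although each of the 3 ephrin calls was lost without 1 or more single libraries. Sema3e had the highest change (log2 change 2.51 ± 0.23, adjusted p = 4.53e-10), from near 2 CPM in both CFAE+8 libraries to over 11 in both CFAE+8+MSC libraries. Unc5c rose by 1.78 ± 0.19, adjusted p = 1.94e-08, and Unc5d by 1.29 ± 0.07, adjusted p = 1.05e-14. Both genes gave non-overlapping levels, and they had opposite changes between MEF medium and CFAE+8. Sema7a rose by 1.55 ± 0.12, adjusted p = 2.77e-11, and so did its receptor Plxnc1, by 0.80 ± 0.13, adjusted p = 2.02e-05. Among the Eph receptors Epha4 rose by 1.36 ± 0.14, adjusted p = 1.29e-08, Epha7 by 0.75 ± 0.13, adjusted p = 4.21e-05 and Epha8 by 1.07 ± 0.24, adjusted p = 0.000762. Plxna2, lower in CFAE+8 than in MEF, was at 73.2 and 81.2 CPM in MEF medium, 59.8 and 56.7 in CFAE+8, 132 and 128 in CFAE+8+MSC and 106 and 105 in CFAE+6. It rose by 1.16 ± 0.07, adjusted p = 2.11e-14, and its CFAE+8 libraries were the lowest of the 8. Slit2 rose by 0.66 ± 0.06, adjusted p = 6.18e-10, Slit3 by 0.37 ± 0.05, adjusted p = 9.91e-07, Sema6a by 0.89 ± 0.07, adjusted p = 7.81e-12 and Plxna4 by 0.67 ± 0.06, adjusted p = 7.49e-10.

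The genes that fell with MSC2530818 included Ephb3 (log2 change -0.83 ± 0.10, adjusted p = 5.22e-08), Sema3f (-0.78 ± 0.06, adjusted p = 3.21e-11), Sema4b (-0.67 ± 0.12, adjusted p = 6.28e-05), Ntn1 (-0.58 ± 0.10, adjusted p = 5.68e-05), Plxna3 (-0.54 ± 0.07, adjusted p = 4.2e-07) and Sema6b (-1.34 ± 0.26, adjusted p = 0.000165). Sema3f had not passed the test between MEF medium and CFAE+8, and stood at 83.8 and 83.7 CPM in CFAE+8+MSC. Robo1 did not pass the test (log2 change -0.08 ± 0.05, adjusted p = 0.27, 95% interval -0.19 to 0.03). Of the co-receptors Nrp2 rose by 0.59 and Dcc by 1.68, of the effectors Trim9 rose by 1.22 and Ngef by 1.28, and Draxin did not pass the test (log2 change -0.12 ± 0.06, adjusted p = 0.114). Endothelial markers of the CFAE+8+MSC libraries summed to 119 and 117 CPM beside 71.6 and 64.7 in CFAE+8, and epithelial markers to 45.7 and 41.3 beside 11.8 and 10.9. All genes tested had 15.6% called higher and 13.8% lower in this comparison. Markers of neural crest and glia summed to 38.9 and 34.2 CPM beside 21.3 and 19.9, with 4 of 7 tested higher and 0 lower. Of the epithelial markers 4 of 6 were higher and 0 lower, and of the endothelial markers 3 of 7 were higher and 0 lower. Their part in these differences was not tested.

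Some of these calls were lost without 1 library. The rise of Sema5a by 0.15 (adjusted p = 0.00956) was lost without CFAE+8 replicate 1 (0.15, adjusted p = 0.0823) or CFAE+8 replicate 2 (0.16, adjusted p = 0.0534). That of Ephb1, 1.10 (adjusted p = 0.00927), was lost without CFAE+8 replicate 1 (0.76, adjusted p = 0.158) or CFAE+8+MSC replicate 1 (0.88, adjusted p = 0.117). Slit1 rose by 0.80 (adjusted p = 0.0113), which was lost without CFAE+8 replicate 2 (0.72, adjusted p = 0.097) or CFAE+8+MSC replicate 2 (0.71, adjusted p = 0.0872). The fall of Robo2 by 0.25 (adjusted p = 0.00983) was lost without CFAE+8 replicate 1 (-0.20, adjusted p = 0.139) or CFAE+8+MSC replicate 2 (-0.24, adjusted p = 0.0586). All 3 ephrin calls were lost too: Efna3 without CFAE+8+MSC replicate 2 (0.43, adjusted p = 0.21), and also without CFAE+8 replicate 1 or CFAE+8 replicate 2; Efna5 without CFAE+8+MSC replicate 1 (0.17, adjusted p = 0.283); and Efnb1 without CFAE+8+MSC replicate 2 (0.14, adjusted p = 0.141), and also without CFAE+8 replicate 1. The rise of Robo3 by 2.14, 1 of the 10 of at least 1 in size, was lost without CFAE+8 replicate 2 (1.51, adjusted p = 0.188), and also without CFAE+8+MSC replicate 1, and was 3.27 without CFAE+8 replicate 1. The Ephb6 call was lost without CFAE+8 replicate 2 (0.20, adjusted p = 0.191), and also without CFAE+8 replicate 1 or CFAE+8+MSC replicate 1 or CFAE+8+MSC replicate 2. The Sema4c call was lost without CFAE+8 replicate 1 (0.20, adjusted p = 0.0791), and that of Sema4f without CFAE+8 replicate 2 (-0.27, adjusted p = 0.27), and also without CFAE+8+MSC replicate 1 or CFAE+8+MSC replicate 2.

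**Figure D4:**
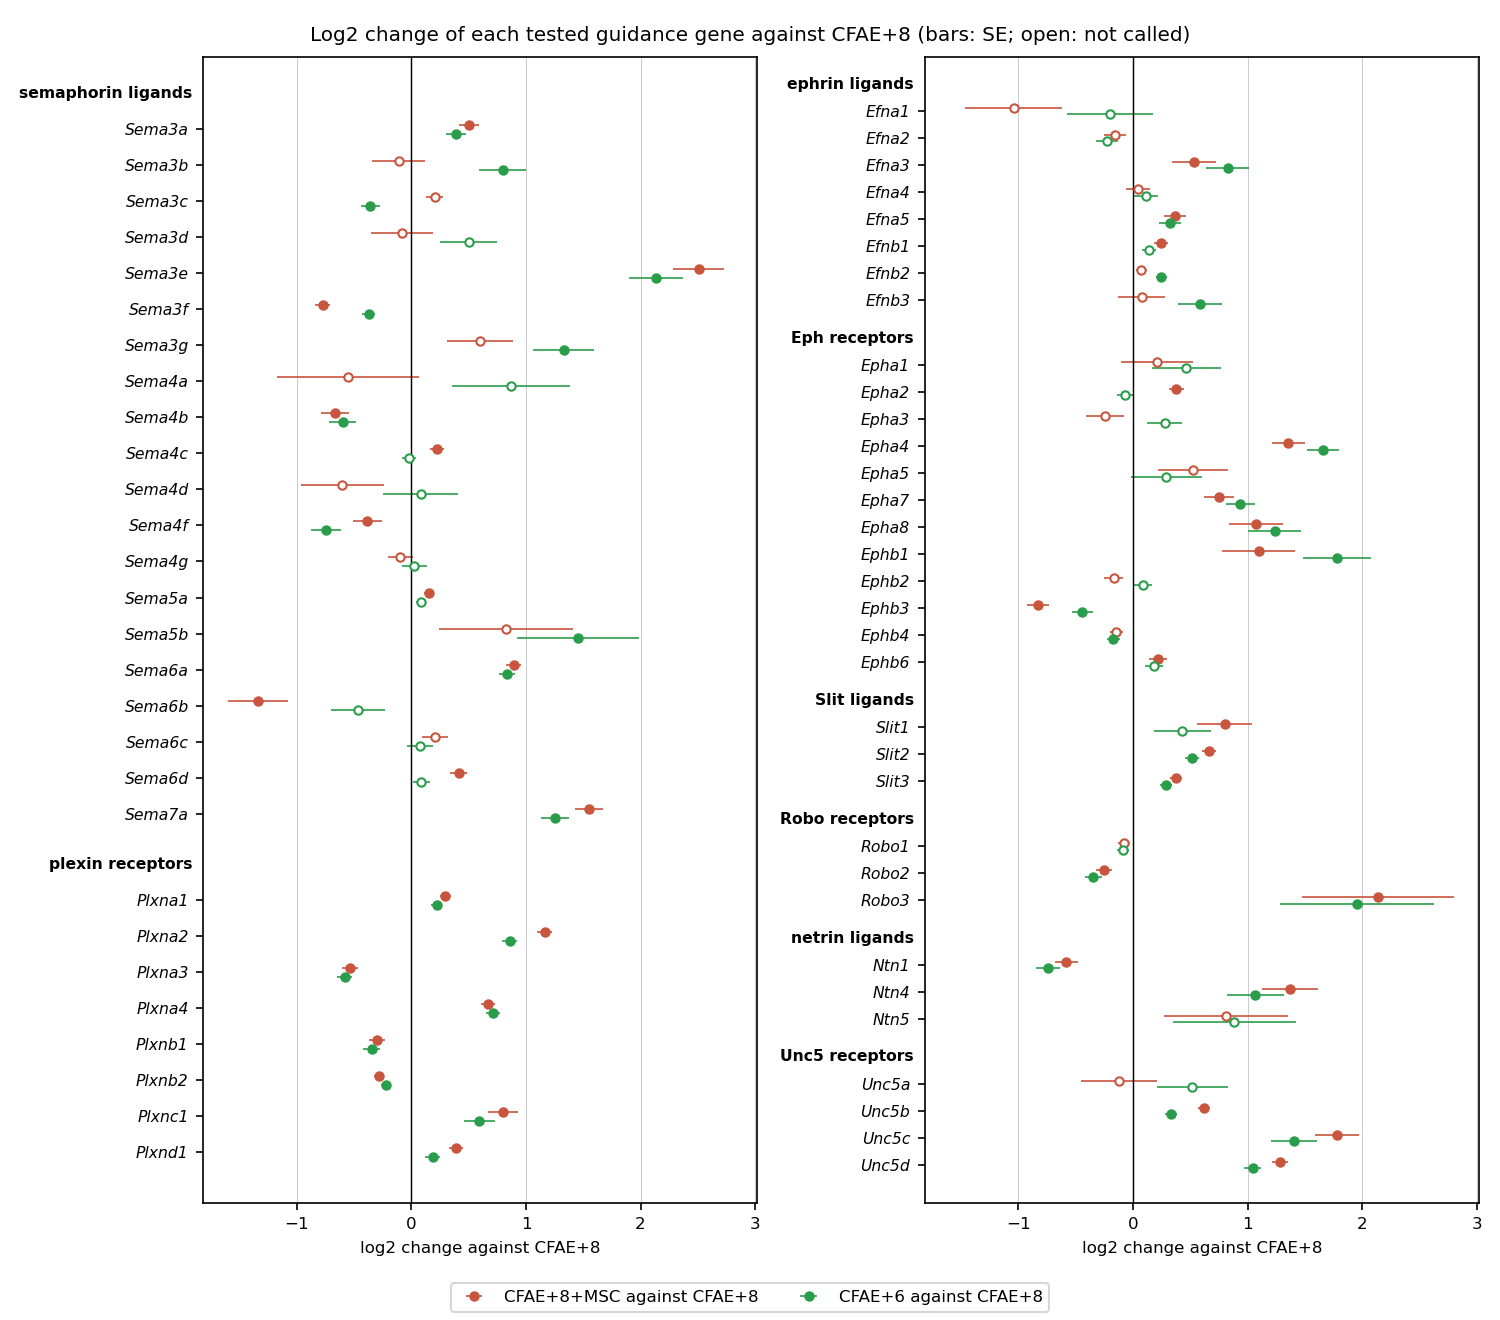
Log2 change against CFAE+8 (x axis) of the 61 tested guidance genes by family, for CFAE+8+MSC (red) and CFAE+6 (green), which share the CFAE+8 libraries; points are edgeR estimates, bars are standard errors and open points did not pass the test. Sema3e lies beyond 2 and Sema7a, Epha4, Epha8, Ntn4, Unc5c and Unc5d beyond 1 in both colours, and Sema3f, Sema4b, Plxna3, Ephb3 and Ntn1 lie left of 0.

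Replacing A-83-01 by E-616452 compares 2 inhibitors of TGF-beta type I receptors within 1 cocktail, at doses that are not given here. The log2 changes of at least 1 in size that passed the test were at Sema3e, Robo3, Ephb1, Epha4, Sema5b, Unc5c, Sema3g, Sema7a, Epha8, Ntn4 and Unc5d, all higher with E-616452. Of 61 tested genes 27 rose and 11 fell in CFAE+6 relative to CFAE+8, which is 62.3%, against 26.6% of all genes tested (14.3% higher and 12.3% lower). With a log2 change of at least 1 in size 11 rose and 0 fell, against 4.47% of all genes tested higher and 1.11% lower, 5.57% together. The median log2 change was 0.29 for the guidance genes and 0.00 for all genes. Epithelial markers summed to 38.8 and 38.4 CPM in CFAE+6 beside 11.8 and 10.9 in CFAE+8 (4 of 6 tested higher, all 4 with a log2 change of at least 1, and 0 lower), and markers of neural crest and glia to 37.7 and 37.6 beside 21.3 and 19.9 (5 of 7 higher and 0 lower). Neuronal markers, 5 of 9 higher and 1 lower, and endothelial markers, 2 of 7 higher and 0 lower, had the sums given above. The part of these cells in the differences was not tested.

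Sema3e rose by 2.13 ± 0.23, adjusted p = 2.96e-08, and the 2 media did not overlap. Ephb1 rose by 1.78 ± 0.30, adjusted p = 3.14e-05 and Epha4 by 1.66 ± 0.14, adjusted p = 1.53e-10, while Epha2 did not pass the test (log2 change -0.07 ± 0.07, adjusted p = 0.494, 95% interval -0.21 to 0.07). The repulsive netrin receptors Unc5c and Unc5d rose by 1.41 ± 0.20, adjusted p = 3.27e-06 and 1.04 ± 0.07, adjusted p = 2.29e-12. Sema3g rose by 1.33 ± 0.27, adjusted p = 0.000336, and Sema7a by 1.25 ± 0.12, adjusted p = 4.27e-09. These ligands were at 9.26 and 8.73 CPM (Sema3g) and 28.8 and 35.4 CPM (Sema7a) in CFAE+6. The basement membrane netrin Ntn4 rose by 1.07 ± 0.25, adjusted p = 0.00171, a call lost without CFAE+8 replicate 1 (0.80, adjusted p = 0.0555), and Sema3b rose by 0.80 ± 0.20, adjusted p = 0.00399, likewise lost without CFAE+8 replicate 1 (0.61, adjusted p = 0.0846). Genes that fell included Sema4f (-0.75 ± 0.13, adjusted p = 6.74e-05), Ntn1 (-0.74 ± 0.10, adjusted p = 2.22e-06), Plxna3 (-0.58 ± 0.07, adjusted p = 1.17e-07), Ephb3 (-0.44 ± 0.09, adjusted p = 0.000437), Sema3c (-0.36 ± 0.08, adjusted p = 0.00121) and Robo2 (-0.35 ± 0.07, adjusted p = 0.000623). The B-type ephrin Efnb2 rose by 0.25 ± 0.05, adjusted p = 0.000281, and Robo1 did not pass the test (-0.09 ± 0.05, adjusted p = 0.23, 95% interval -0.20 to 0.02).

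Among the changes of at least 1 in size, Robo3, under 2 CPM in every library, rose by 1.96 ± 0.67, adjusted p = 0.0305, a call lost without CFAE+8 replicate 2 (1.33, adjusted p = 0.28), and also without CFAE+6 replicate 1 or CFAE+6 replicate 2. Without CFAE+8 replicate 1 its change was 3.08. Sema5b, at 0.598 and 0.339 CPM in CFAE+8 and 1.15 and 1.46 in CFAE+6, rose by 1.46 ± 0.53, adjusted p = 0.0425, a call lost without CFAE+8 replicate 2 (1.11, adjusted p = 0.253), and also without MEF replicate 1 or MEF replicate 2 or CFAE+8 replicate 1 or CFAE+6 replicate 1 or CFAE+6 replicate 2. Of the smaller changes, the Efnb3 call was lost without CFAE+8 replicate 2 (0.50, adjusted p = 0.176), and also without CFAE+8 replicate 1 or CFAE+6 replicate 2, and that of Efna5 without CFAE+6 replicate 1 (0.26, adjusted p = 0.109), and also without CFAE+8 replicate 1. The Sema3a call was lost without CFAE+8 replicate 2 (0.27, adjusted p = 0.0825). That of Ephb4 was lost without CFAE+6 replicate 2 (-0.13, adjusted p = 0.185), and also without CFAE+8 replicate 1 or CFAE+8 replicate 2, and that of Plxnd1 without CFAE+8 replicate 2 (0.16, adjusted p = 0.194), and also without CFAE+8 replicate 1 or CFAE+6 replicate 2.

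CFAE+8+MSC and CFAE+6, which differ in both the TGF-beta receptor inhibitor and the CDK8/19 inhibitor, differed by less than 1 on the log2 scale in every guidance gene that was called. Of 61 tested genes 8 were higher and 7 lower in CFAE+8+MSC, which is 24.6%, against 10.5% of all genes tested (6.21% higher and 4.27% lower), and 0 passed the test with a log2 change of at least 1 in size, against 0.924% (0.543% higher and 0.381% lower). The number called was 8 without CFAE+8+MSC replicate 1. The higher genes were Sema3c, Sema4c, Sema6d, Plxna2, Plxnd1, Epha2, Unc5b and Unc5d, and the lower ones were Sema3b, Sema3f, Sema6b, Epha3, Ephb2, Ephb3 and Efnb2. Sema3b was 3.64 and 3.53 CPM in CFAE+8+MSC and 6.79 and 6.68 in CFAE+6 (log2 change -0.91 ± 0.21, adjusted p = 0.00403), and Sema3c went the other way (0.56 ± 0.08, adjusted p = 1.27e-05). Epha2 was higher with CFAE+8+MSC by 0.45 ± 0.07, adjusted p = 1.62e-05, Sema6d by 0.33 ± 0.07, adjusted p = 0.0028, Plxna2 by 0.31 ± 0.06, adjusted p = 0.00115 and Unc5b by 0.29 ± 0.05, adjusted p = 0.000194, and Sema3f was lower by 0.40 (adjusted p = 4.35e-05). Of the 15 calls 8 were lost without at least 1 library. The call of Efnb2 was lost without CFAE+8+MSC replicate 2 (-0.17, adjusted p = 0.0923), and also without CFAE+8+MSC replicate 1 or CFAE+6 replicate 1 or CFAE+6 replicate 2. That of Epha3 was lost without CFAE+8+MSC replicate 1 (-0.34, adjusted p = 0.347), and also without MEF replicate 1 or MEF replicate 2 or CFAE+6 replicate 2. The Ephb2 call was lost without CFAE+8+MSC replicate 1 (-0.15, adjusted p = 0.421), and also without MEF replicate 1 or MEF replicate 2 or CFAE+8 replicate 1 or CFAE+8 replicate 2 or CFAE+6 replicate 1. That of Ephb3 was lost without CFAE+8+MSC replicate 1 (-0.26, adjusted p = 0.204), and also without CFAE+6 replicate 2. The Plxnd1 call was lost without CFAE+8+MSC replicate 2 (0.20, adjusted p = 0.134), and also without CFAE+8+MSC replicate 1 or CFAE+6 replicate 1 or CFAE+6 replicate 2. That of Sema4c was lost without CFAE+6 replicate 1 (0.17, adjusted p = 0.137), and also without CFAE+8+MSC replicate 1. The Sema6b call was lost without CFAE+6 replicate 1 (-0.61, adjusted p = 0.288), and also without CFAE+8+MSC replicate 2. That of Unc5d was lost without CFAE+8+MSC replicate 2 (0.24, adjusted p = 0.0754), and also without CFAE+8+MSC replicate 1 or CFAE+6 replicate 1. For Sema3e (log2 change 0.37 ± 0.17, adjusted p = 0.198, 95% interval 0.01 to 0.73), Unc5c (0.37 ± 0.16, adjusted p = 0.153, 95% interval 0.04 to 0.70) and Epha4 (-0.30 ± 0.12, adjusted p = 0.108, 95% interval -0.55 to -0.06) the difference did not pass the test.

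On the RPKM scale the order of the genes changed between media. In MEF medium Slit3 led (133 ± 7.60, SD, n = 2), followed by Plxnb2 (94.7 ± 2.01), Plxna1 (56.1 ± 2.81) and Unc5b (52.0 ± 5.08), the last pair being within their spread. In CFAE+8 the order was Plxnb2 (102 ± 1.21), Unc5b (65.0 ± 2.76), Efnb1 (49.7 ± 1.76), Sema5a (45.6 ± 0.333) and Efnb2 (36.0 ± 0.477), with Slit3 at 29.1 ± 0.363. Sema5a was at 3.99 in MEF medium, so that it entered the first 5 only in the cocktails. In CFAE+8+MSC Unc5b (100.1 ± 1.56) stood above Plxnb2 (83.4 ± 1.24), and in CFAE+6 these were 81.8 ± 0.251 and 86.9 ± 0.196. Efnb1 followed in both, at 58.9 ± 5.93 and 54.9 ± 2.70, ahead of Sema5a at 50.7 ± 0.461 and 48.4 ± 3.10.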

How the data were processed

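RNA-seq counts per gene, as the authors deposited them, cover 8 libraries of mouse embryonic fibroblasts on day 4. The submitters' processing notes name featureCounts, Subread, DESeq2 and mm10, with no versions; the strand setting is not given there. Genes of the table were checked against GENCODE M21, where all 65 members matched. The members and all gene lists were chosen with earlier results of these data known.

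The counts were fitted with edgeR 4.0.16 in R 4.3.3 (limma 3.58.1), with TMM scaling, filterByExpr and quasi-likelihood tests over 8 libraries in 1 model. This tested 15470 of the 28024 genes with a count, which held 99.9% of all counts. The 6 comparisons of media were tested with Benjamini-Hochberg adjustment over all genes tested in each and a threshold of 0.05. Standard errors are the size of the fitted log2 change divided by the square root of the F statistic of the test. The 95% intervals of log2 changes use the total degrees of freedom of that test. These add a part estimated over all genes to the 4 residual degrees of freedom of the model. RPKM used gene lengths from the deposited table. Values by library were given for members called with a log2 change of at least 1 in size in any comparison and at least 5 CPM on average in some medium, and of the 40 such members for the 30 with the largest change. From the partner lists up to 4 called genes per list and direction were to be named by smallest adjusted p; other genes were named after their values were seen. Fold changes from a group with 1 count are ratios with exact 95% counting intervals, and from a group with none are bounds, taking 3 counts in the group as the floor. The edgeR fit was tested on simulated data.

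Totals of 10958430 to 11913143 counts per library limit precision for genes near 1 CPM. Alternatives were DESeq2 1.42.0, 2 other scalings, 2 other filters, 2-group fits, a test against a 1.2-fold change, a minimum log2 change of 1, a replicate block and leaving out each library.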

Additional observations from a re-analysis of the deposited data

How the results depend on the processing

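No guidance gene that was called changed direction under any alternative. Apart from the minimum log2 change of 1, the share of all genes called under each alternative is not given here. The counts under those alternatives therefore do not tell whether guidance genes lost more calls than other genes. The totals given next leave out the test against a 1.2-fold change and the minimum log2 change of 1, which are described after them. Over all member-by-comparison results and the remaining settings, leaving out a library aside, 2503 of 2553 kept their side of the threshold. Of the rest 41 lost and 9 gained the call. On leaving out a library most results kept their side of the threshold, and more calls were lost than gained. The cause was not tested. Requiring a log2 change of at least 1 in size as well, which by construction removes smaller changes, left 37 genes called in CFAE+8 against MEF (15 lower), 36 in CFAE+8+MSC against MEF (11 lower) and 37 in CFAE+6 against MEF (14 lower). It left 11 in CFAE+8+MSC against CFAE+8 (10 higher and 1 lower), 11 in CFAE+6 against CFAE+8 (11 higher and 0 lower) and 0 in CFAE+8+MSC against CFAE+6 (0 higher and 0 lower). Testing against a 1.2-fold change (glmTreat), which by construction asks for more than a difference from 0, left 6 lower genes in CFAE+8+MSC against CFAE+8, 21 genes (17 higher and 4 lower) in CFAE+6 against CFAE+8 and 3 (2 higher and 1 lower) in CFAE+8+MSC against CFAE+6. DESeq2 called 4 genes lower in CFAE+8+MSC against CFAE+6, where edgeR called 7; the cause was not tested. On leaving out each library in turn that comparison had from 8 to 14 genes called, 5 to 8 higher and 3 to 6 lower, with the lowest values without CFAE+8+MSC replicate 1.

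It is not known whether the replicate numbers pair the libraries. The differences between replicates of 2 media correlated at -0.0384 to 0.0807 over genes. This cannot decide the question, because technical spread would hide a pairing. With the replicate number as a block the number of guidance genes called was 55, 55 and 56 in CFAE+8, CFAE+8+MSC and CFAE+6 against MEF, 39 and 38 in CFAE+8+MSC and CFAE+6 against CFAE+8, and 15 in CFAE+8+MSC against CFAE+6. With 2 libraries a medium, genes near 1 CPM such as Robo3, Sema4a and Epha5 have wide intervals; counting error and the spread between 2 libraries were not separated for them.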
